A study of Mus musculus with 40 samples.

Results

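The 9 genes described here encode C-type lectin receptors of myeloid cells, and they were taken by name from the rows of the 3 deposited tables: Clec7a, Clec4n, Clec4d, Clec4e, Clec5a, Clec4a1, Clec4a2, Clec4a3 and Clec12a. They are 9 of 54513 rows in each table, and all 9 passed the filter of a mean of 1 RPKM (reads scaled by gene length and by the reads of the library) in each of the fits. RNA was sequenced from CD11b+ cells, the myeloid fraction of the brain that holds microglia and infiltrating monocytes and macrophages, sorted by FACS from male mice aged 10 to 12 weeks. In the first experiment GL261 tdTomato+luc+ murine glioma cells were implanted in the right striatum of C57BL/6 mice, an osmotic pump delivered water (vehicle), the integrin-blocking peptide 7aaRGD or the control peptide 7aaRAE, in which the integrin-binding motif is changed, at 2 mg/ml into the tumor, and cells were taken at 21 days post-implantation (21 DPI), with naïve mice as the tumor-free group. These 4 groups had 3 samples each, and each sample pooled 2 animals.

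The second experiment sampled single mice at 28 DPI. It held 4 vehicle and 4 7aaRGD samples. A further 3 came from mice given anti-PD-1 antibody intraperitoneally at 10 mg/kg, and 3 from mice given both agents (the combination). Mice without the antibody received control IgG. As in the first experiment, osmotic pumps delivered water or 7aaRGD at 2 mg/ml into the tumor. The labels of this experiment name nude mice, whereas the study's methods describe GL261 gliomas in C57BL/6 mice. The study also states that the joint effect of 7aaRGD and such antibodies could not be tested in immunodeficient mice. These samples were grouped by their treatment labels alone and are called GL261 here. The third experiment used U87-MG RFP, a human glioma line, in Athymic Nude-Foxn1nu mice, which lack mature T cells but keep myeloid and NK cells. Osmotic pumps again delivered water or a peptide at 2 mg/ml into the tumor. Vehicle, 7aaRGD and 7aaRAE had 3 samples each at 21 DPI, and each sample pooled 2 animals. The samples of a group cannot be told apart by number and are called a, b and c here. Nothing in the labels says whether samples came from separate surgeries, so p-values measure the spread between these samples.

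C-type lectin receptors bind sugars, lipids and products of dying cells. Dectin-1 (Clec7a) carries its own activating motif, whereas Dectin-2 (Clec4n), MCL (Clec4d) and Mincle (Clec4e) pair with the FcRγ chain and MDL-1 (Clec5a) with DAP12; these routes converge on the kinase SYK and the adaptor CARD9, which lead to cytokine genes. Dcir (Clec4a2) and MICL (Clec12a) carry an inhibitory motif that recruits phosphatases, and Clec4a1 and Clec4a3 encode close relatives of Dcir. In the brain, Clec7a is known as a gene that microglia induce in disease, while Mincle and MCL are known from monocytes and macrophages.

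All 9 genes lie on chromosome 6 (mm10). The 6 Clec4 genes fill 368.0 kb, from 122921848 to 123289870, in the order Clec4a1 (chr6:122921848-122934619), Clec4a3 (chr6:122952515-122969875), Clec4a2 (chr6:123106428-123143999), Clec4n (chr6:123229843-123247021), Clec4d (chr6:123262111-123275265) and Clec4e (chr6:123281789-123289870), the last on the minus strand and the others on the plus strand. Clec12a (chr6:129342691-129365303, plus strand) and Clec7a (chr6:129461591-129472779, minus strand) form a second stretch of 130.1 kb, and Clec5a (chr6:40574894-40585821, minus strand) lies apart. Clec4a1, Clec4a2 and Clec4a3 are near copies of each other. Counting in the study kept reads with a mapping quality of at least 10, which leaves out reads that match several places equally well, and how much of each gene this removed was not tested.

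RefSeq (GRCm38.p6, the assembly behind mm10) held a promoter for 8 of the 9 genes. Clec7a had the highest mean level of the receptors in GL261 gliomas. The 250 bases before the start are shown for Clec7a, for the 4 receptors called higher with anti-PD-1 at 28 DPI and for Clec4a2, called lower. They are written 5′ to 3′ on the gene's strand, and capitals mark GAGGAA or its reverse complement TTCCTC, letters bound by PU.1, a transcription factor of the myeloid lineage. The windows are chr6:123289872-123290121 (minus strand) for Clec4e, chr6:123261857-123262106 (plus) for Clec4d, chr6:129349994-129350243 (plus) for Clec12a, chr6:122921598-122921847 (plus) for Clec4a1, chr6:123122440-123122689 (plus) for Clec4a2 and chr6:129472780-129473029 (minus) for Clec7a.
Clec4e: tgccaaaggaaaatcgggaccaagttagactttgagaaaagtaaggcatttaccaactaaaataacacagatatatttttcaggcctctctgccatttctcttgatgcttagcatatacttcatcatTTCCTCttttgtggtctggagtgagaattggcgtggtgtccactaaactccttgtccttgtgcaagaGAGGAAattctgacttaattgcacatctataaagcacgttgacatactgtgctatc
Clec4d: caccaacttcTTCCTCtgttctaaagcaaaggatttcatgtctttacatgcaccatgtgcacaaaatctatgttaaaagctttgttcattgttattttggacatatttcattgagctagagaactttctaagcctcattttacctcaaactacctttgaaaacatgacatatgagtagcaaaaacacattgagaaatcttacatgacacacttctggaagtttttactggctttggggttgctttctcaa
Clec12a: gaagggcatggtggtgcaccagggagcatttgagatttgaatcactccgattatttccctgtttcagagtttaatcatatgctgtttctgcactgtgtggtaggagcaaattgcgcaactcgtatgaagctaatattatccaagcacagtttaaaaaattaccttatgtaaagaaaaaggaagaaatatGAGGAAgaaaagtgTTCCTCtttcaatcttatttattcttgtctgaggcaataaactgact
Clec4a1: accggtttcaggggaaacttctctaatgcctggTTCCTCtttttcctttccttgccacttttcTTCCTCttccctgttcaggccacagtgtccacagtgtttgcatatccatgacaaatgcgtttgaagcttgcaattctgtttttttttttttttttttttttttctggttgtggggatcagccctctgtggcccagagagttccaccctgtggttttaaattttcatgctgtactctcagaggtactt
Clec4a2: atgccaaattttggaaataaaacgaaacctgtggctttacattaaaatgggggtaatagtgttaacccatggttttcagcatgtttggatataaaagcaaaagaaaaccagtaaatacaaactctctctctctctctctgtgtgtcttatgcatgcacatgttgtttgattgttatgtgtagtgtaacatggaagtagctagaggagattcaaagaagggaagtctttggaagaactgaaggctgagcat
Clec7a: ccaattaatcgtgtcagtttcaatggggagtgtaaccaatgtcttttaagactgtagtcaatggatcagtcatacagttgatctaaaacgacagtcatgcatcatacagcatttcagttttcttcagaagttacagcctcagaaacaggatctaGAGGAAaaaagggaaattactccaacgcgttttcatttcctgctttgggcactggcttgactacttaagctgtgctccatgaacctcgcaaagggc

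The PU.1 letters stood in 6 of 8 windows, against 23.3% of the 32851 RefSeq promoters searched the same way. Clec4e had them 123 and 56 bases before the start, Clec12a 61 and 47, Clec4a1 217 and 187, Clec5a 81 and 55, Clec7a 96 and Clec4d 240. The Clec4a2 window and the Clec4a3 window used had none, although 1 of the 2 RefSeq entries of Clec4a3 did. The C/EBP letters TTNNGNAA, on either strand, stood in 5 of 8 windows (36.8% of all promoters), AP-1 letters TGANTCA in Clec12a alone (6.75%) and NF-kB letters, GGG and CC with 5 bases of any kind between, in Clec4a1 alone (45.8%). None of these matches overlapped the PU.1 letters. The RefSeq starts of Clec4a2 and Clec12a lie 16262 and 7553 bases from the GENCODE starts, so these windows describe 1 annotated start each.

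Before the results, a few facts of the libraries are needed. The files hold no counts, so the depth of a sample is unknown. Between 3.13% and 8.78% of values lay below the constant of 2 that was added to the RPKM, which shows that values were altered after normalization. Of the 21 DPI GL261 samples, 7aaRGD replicate 1 stood apart with 3.13% (the others 5.76 to 6.97%), and in the U87-MG table the samples c had 3.61 to 4.32% against 7.77 to 8.78% in the other 6. The residuals of replicates spanned 7 of 8 dimensions at 21 DPI and 9 of 10 at 28 DPI in GL261, leaving out dimensions much smaller than the largest. The smallest dimension was not empty, at 3.8% of the largest at 21 DPI and 4.3% at 28 DPI. What this does to the p-values was not tested.

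At 21 DPI, 7 of the 9 receptors were more abundant in CD11b+ cells of vehicle-treated GL261 gliomas than in those of naïve brains, and none was lower. The test was limma on log2(RPKM + 1) over 9754 genes, with Benjamini-Hochberg adjusted p-values and a threshold of 0.05. It called 34.7% of all genes higher and 48.2% lower, and 35.6% of genes were higher without overlap, so most genes differed between these groups. The median log2 fold change was 3.39 over the receptors and -0.14 over all genes; with median-of-ratios factors the median over all genes was -0.0008 and 7 receptors were called again.

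Clec7a, the beta-glucan receptor Dectin-1, had 11.7, 10.6 and 12.9 RPKM in naïve mice and 503, 602 and 325 RPKM with vehicle. Every vehicle sample stood far above every naïve one. The ratio of means was 40.6, and the log2 fold change was 5.19 (SE 0.20, limma adjusted p = 1.38e-07).

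Among the receptors that pair with FcRγ, Clec4n had 1.25, 1.34 and 1.84 RPKM in naïve mice and 84.6, 56.6 and 77.4 RPKM with vehicle, a ratio of 49.4 and a log2 fold change of 4.89 (SE 0.15, limma adjusted p = 5.19e-08). Clec4d had 1.14, 0.923 and 1.27 RPKM in naïve mice and 27.6, 21.0 and 39.8 RPKM with vehicle (log2 fold change 3.81, SE 0.20, limma adjusted p = 5.92e-07). Clec4e, which senses the nuclear protein SAP130 released from dead cells, had 0.129, 0.168 and 0.240 RPKM in naïve mice and 12.98, 13.5 and 17.5 RPKM with vehicle (log2 fold change 3.72, SE 0.11, limma adjusted p = 3.75e-08). No naïve sample of these 3 genes reached 2 RPKM, and the fold change of Clec4e rests on a naïve level near zero, where the added 1 RPKM reduces it.

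The Dcir family did not move together. Clec4a1 had 7.01, 7.45 and 7.84 RPKM in naïve mice and 123, 88.8 and 61.2 RPKM with vehicle (log2 fold change 3.39, SE 0.21, limma adjusted p = 1.72e-06). Clec4a3 started higher, at 48.4, 51.6 and 55.9 RPKM, and reached 134, 112 and 73.5 RPKM (log2 fold change 0.98, SE 0.19, limma adjusted p = 0.00166). Clec4a2, the member with an inhibitory motif, had 17.5, 18.6 and 16.0 RPKM in naïve mice and 22.1, 12.3 and 12.2 RPKM with vehicle. Its groups overlapped, since vehicle replicate 1 lay above all naïve samples and the other vehicle samples lay below them (log2 fold change -0.20, 95% interval -0.67 to 0.27, limma adjusted p = 0.38). Without vehicle replicate 1 it was called lower (-0.47, limma adjusted p = 0.000537).

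The other inhibitory receptor, Clec12a, which recognises uric acid crystals of dead cells, had 1.83, 1.86 and 1.91 RPKM in naïve mice and 12.97, 11.0 and 17.5 RPKM with vehicle (log2 fold change 2.35, SE 0.14, limma adjusted p = 1.38e-06). Clec5a was at 30.0, 31.2 and 31.9 RPKM in naïve brain and at 29.5, 27.3 and 49.4 RPKM with vehicle, so that its groups overlapped (log2 fold change 0.14, 95% interval -0.31 to 0.58, limma adjusted p = 0.535).

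**Figure D1:**
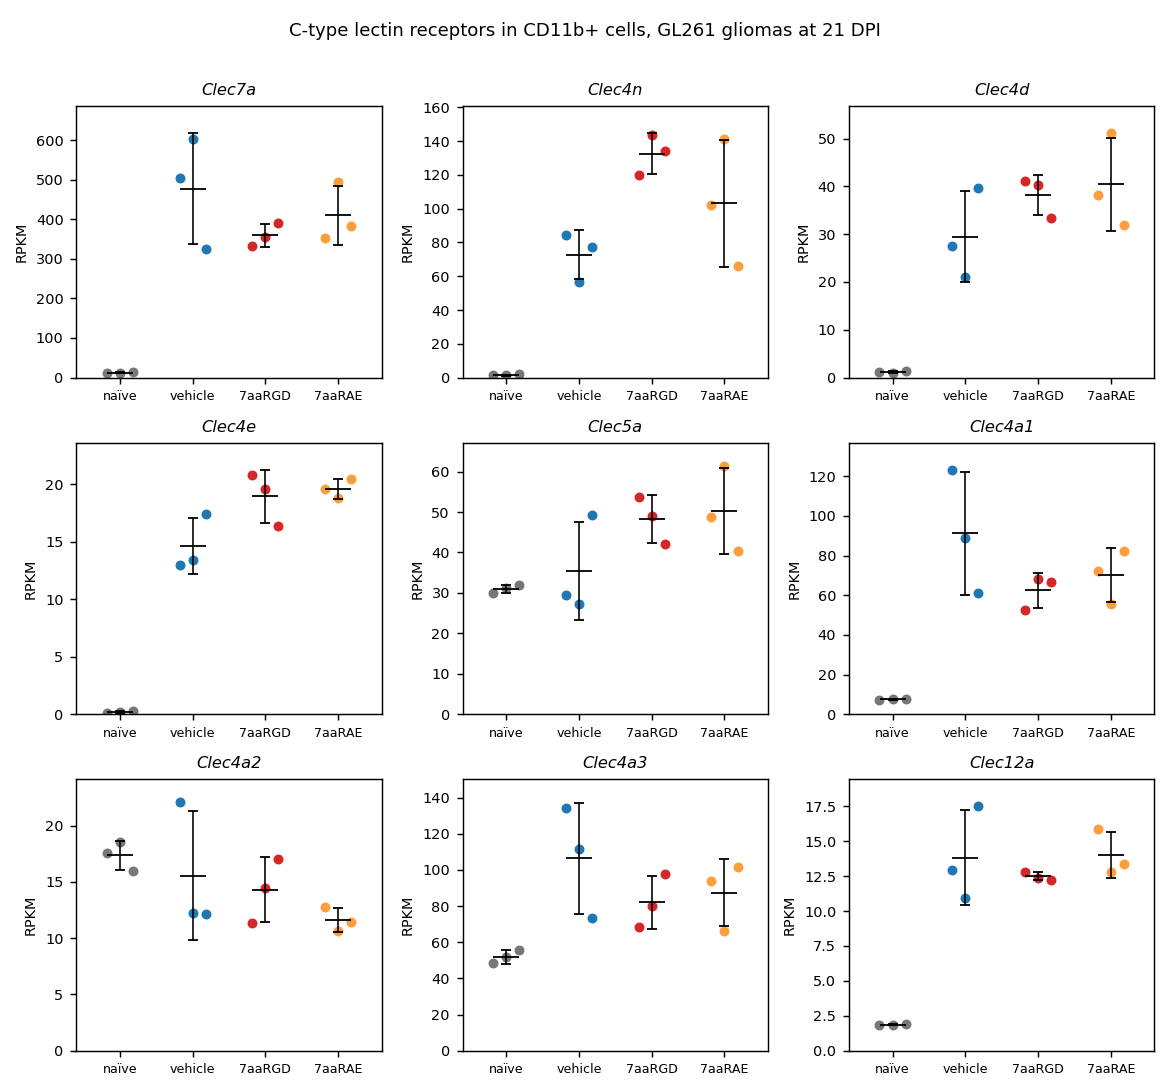
RPKM of the 9 receptors in CD11b+ cells of naïve mice and of mice with GL261 gliomas given vehicle, 7aaRGD or 7aaRAE at 21 DPI; each point is 1 sample of 2 pooled animals (n = 3 per group), and bars give the mean ± SD. Naïve samples lie below all tumor samples in 7 panels, while Clec5a and Clec4a2 overlap between naïve and vehicle.

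Other genes of the pathway differed between naïve and vehicle in both directions. Of 16 adaptors and signalling genes tested, 8 were higher and 6 lower. Fcer1g, which encodes the FcRγ chain, was higher by 0.89 on the log2 scale, whereas Syk (-0.20) and Card9 (-0.50) were lower; these 3 genes were chosen after their values were seen. Among 7 tested genes known to be induced downstream of SYK and CARD9, 6 were higher, with the cytokine gene Il1b at 4.68 and the prostaglandin synthase gene Ptgs2 at 3.88. Of 11 other C-type lectin receptors tested, 5 were higher and 2 lower, among them the collagen receptor gene Mrc2 at -3.15. Of 4 genes of endogenous ligands, 3 were higher and 1 lower, with the annexin gene Anxa5 at 3.08.

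Markers of cell types also differed between these groups. All 7 microglia markers were lower with vehicle (summed level 14055 to 14537 RPKM in naïve mice, 1246 to 1776 RPKM with vehicle), and all 7 markers of monocytes and macrophages were higher (28.8 to 30.1 RPKM and 1448 to 1958 RPKM). Of 7 tested neutrophil markers 1 was higher and 4 were lower (272 to 408 RPKM and 62.5 to 195 RPKM), of 4 tested dendritic cell markers 3 were higher (19.9 to 23.2 RPKM and 188 to 222 RPKM), and of 5 markers of border-associated macrophages 3 were lower (47.8 to 71.2 RPKM and 21.9 to 132 RPKM). No marker of these lists was at 0 in all samples of a group. In such bulk samples, more cells of a type and more RNA per cell cannot be told apart, and the part of the marker changes in the receptor changes was not tested.

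The order of the levels, which RPKM sets per gene length, differed between settings without a peptide. In naïve brain the order of means was Clec4a3 (52.0 RPKM), Clec5a (31.0), Clec4a2 (17.4), Clec7a (11.7), Clec4a1 (7.43), Clec12a (1.87), Clec4n (1.47), Clec4d (1.11) and Clec4e (0.179), and only Clec12a with Clec4n and Clec4n with Clec4d overlapped as neighbours. With vehicle at 21 DPI, Clec7a came first at 477 ± 140.1 RPKM (SD, n = 3), ahead of Clec4a3 (106), Clec4a1 (91.1), Clec4n (72.9), Clec5a (35.4), Clec4d (29.4), Clec4a2 (15.5), Clec4e (14.6) and Clec12a (13.8). In that order the samples of neighbours were separate for Clec7a and Clec4a3 and for Clec4n and Clec5a, and all other neighbours overlapped. Clec7a made up 9.45% of the summed level of the 9 receptors in naïve brain and 55.7% with vehicle.

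In vehicle-treated mice at 28 DPI, Clec7a was again first (234 ± 65.9 RPKM, SD, n = 4), followed by Clec4n (119), Clec4a3 (51.0), Clec5a (42.0), Clec4a1 (31.3), Clec4a2 (24.3), Clec4d (20.8), Clec12a (7.51) and Clec4e (3.98). Neighbours overlapped for Clec5a with Clec4a1 and for Clec4a2 with Clec4d. In U87-MG gliomas with vehicle the order began with Clec4a3 (54.9 RPKM), Clec7a (47.1) and Clec5a (33.9), followed by Clec4a2 and Clec4a1 (both 17.8), Clec4n (14.2), Clec12a (4.85), Clec4d (3.72) and Clec4e (2.29). There Clec5a stood apart from Clec4a2 and Clec4n from Clec12a, and the other neighbours overlapped. The tables were normalized separately and differ in strain, tumor line and animals per sample, so these levels stand side by side without a test.

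**Figure D2:**
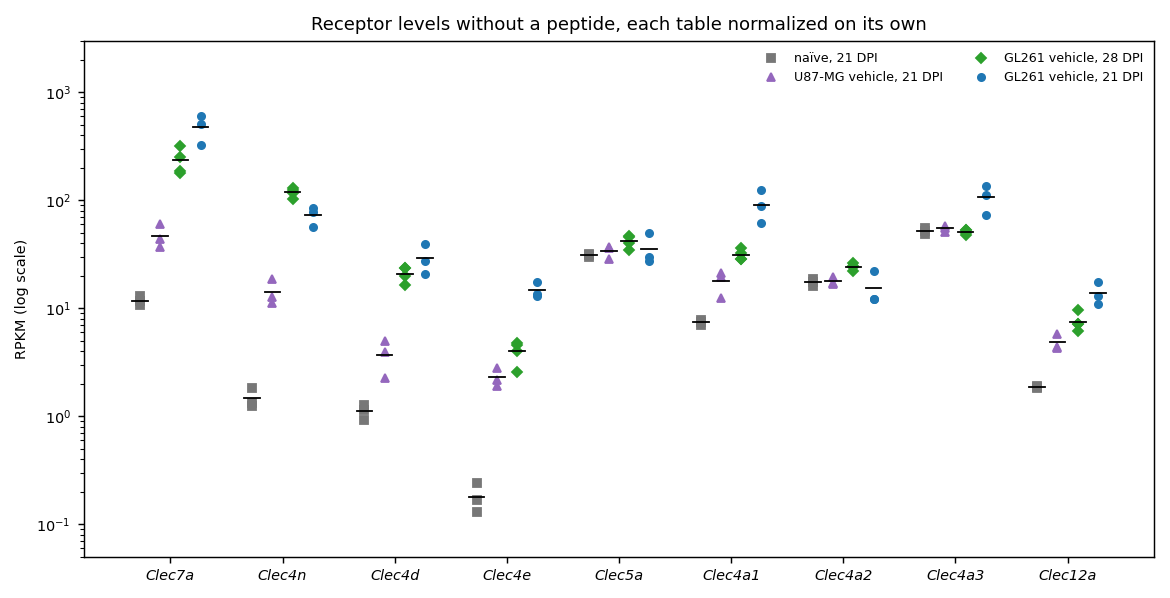
RPKM on a log axis of the 9 receptors in the groups without a peptide: naïve mice and vehicle-treated mice with U87-MG gliomas at 21 DPI or GL261 gliomas at 28 and 21 DPI; each point is 1 sample, lines are means, and each table was normalized on its own. Clec7a spans 11.7 to 477 RPKM between the group means, while Clec5a stays between 31.0 and 42.0.

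The peptides were next compared with vehicle at 21 DPI in GL261 gliomas, to ask whether blocking integrins changed receptor expression. No receptor passed the threshold in any of the 3 comparisons of vehicle, 7aaRGD and 7aaRAE over 9465 genes. For 7aaRGD against vehicle limma called 0.148% of all genes, and at an unadjusted p under 0.05 it marked 2 of the 9 receptors and 13.6% of genes. For 7aaRAE against vehicle it called 0% of genes, with 2 receptors and 6.35% of genes at an unadjusted p under 0.05, and for 7aaRGD against 7aaRAE 0%, with 0 receptors and 5.53%.

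Clec4n had 120.2, 144 and 134 RPKM with 7aaRGD and 102, 141 and 66.2 RPKM with 7aaRAE, beside 84.6, 56.6 and 77.4 RPKM with vehicle. All 7aaRGD samples lay above all vehicle samples, as for 12.5% of genes, while 7aaRAE overlapped both groups. The log2 fold change was 0.87 for 7aaRGD against vehicle (95% interval 0.33 to 1.42, limma adjusted p = 0.206) and 0.42 for 7aaRGD against 7aaRAE (-0.13 to 0.97, limma adjusted p = 0.992). Clec4e had 20.8, 19.6 and 16.4 RPKM with 7aaRGD and 19.5, 18.8 and 20.5 RPKM with 7aaRAE, beside 12.98, 13.5 and 17.5 RPKM with vehicle. Only its 7aaRAE samples lay wholly above vehicle (6.11% of genes), with log2 fold changes of 0.41 for 7aaRAE (limma adjusted p = 0.719) and 0.36 for 7aaRGD (limma adjusted p = 0.259).

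The other receptors overlapped between the groups. Against vehicle, their log2 fold changes ran from -0.49 (Clec4a1) to 0.48 (Clec5a) with 7aaRGD. With 7aaRAE they ran from -0.34 (Clec4a2) to 0.52 (Clec5a). Clec7a had 332, 355 and 390.4 RPKM with 7aaRGD and 353, 494 and 382 RPKM with 7aaRAE, within the 325 to 602 RPKM of vehicle. Between both peptides at the same dose and time, the 9 log2 fold changes ran from -0.18 (Clec7a) to 0.42 (Clec4n). The widest interval was that of Clec4n, and the others reached from -0.68 to 0.74, so differences of this size between the peptides are not excluded by these samples. None of the adaptor, ligand, cytokine or other lectin genes and no cell type marker passed the threshold in these comparisons. The summed levels of the microglia, dendritic cell, T cell, oligodendrocyte and neuron lists were higher in every 7aaRGD sample than in every vehicle sample. They were 1784 to 2387 RPKM with 7aaRGD, 1246 to 1776 RPKM with vehicle and 1566 to 2002 RPKM with 7aaRAE for microglia, 241 to 260.0, 188 to 222 and 183 to 291 RPKM for dendritic cells, and 5.79 to 11.2, 1.11 to 4.76 and 2.19 to 6.55 RPKM for T cells. In the same order they were 16.5 to 18.2, 12.2 to 15.1 and 15.2 to 15.8 RPKM for oligodendrocytes. For neurons they were 3.20 to 5.77, 1.67 to 2.78 and 2.06 to 3.81 RPKM. Those of NK cells overlapped, at 12.05 to 29.6, 4.49 to 14.5 and 4.43 to 15.7 RPKM, as did those of monocytes and macrophages (1642 to 1964, 1448 to 1958 and 1628 to 1955 RPKM). No marker of these lists was at 0 in all samples of a group, and their part in the receptor values was not tested.

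At 28 DPI the treatments could be combined. With 7aaRGD alone no receptor passed the threshold against vehicle, where limma called 0.799% of 9766 genes, and none had an unadjusted p under 0.05, which 14.7% of genes had. The 9 log2 fold changes lay between -0.41 (Clec7a, 95% interval -1.01 to 0.19) and 0.28 (Clec4e, -0.20 to 0.76). Clec7a was at 205, 182, 146 and 157 RPKM with 7aaRGD and at 186, 251, 179 and 320.2 RPKM with vehicle, which overlapped. Of the cell type markers, the microglia gene Cx3cr1 alone was higher with 7aaRGD (log2 fold change 0.46, limma adjusted p = 0.0332), and the summed microglia markers were 1719 to 2938 RPKM with 7aaRGD and 1480 to 2095 RPKM with vehicle. Its part in the receptor values was not tested.

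With anti-PD-1 alone, 4 receptors were higher than with vehicle and 1 was lower. Limma called 10.9% of genes higher and 12.2% lower in this comparison. The median log2 fold change was 0.35 over the receptors and -0.0049 over all genes.

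Clec12a showed the largest change. It was at 6.16, 7.15, 9.55 and 7.20 RPKM with vehicle and at 19.9, 19.9 and 17.6 RPKM with anti-PD-1, with no overlap (15.4% of genes were higher without overlap). The log2 fold change was 1.25 (SE 0.18, limma adjusted p = 0.000584). Clec4a2, the other receptor with an inhibitory motif, went the opposite way, from 24.3, 22.0, 24.8 and 26.0 RPKM to 15.9, 15.8 and 13.6 RPKM. All its anti-PD-1 samples lay below all vehicle samples (17.1% of genes were lower without overlap), with a log2 fold change of -0.65 (SE 0.17, limma adjusted p = 0.0158), which missed the threshold without anti-PD-1 replicate 3 (-0.58, limma adjusted p = 0.0573).

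Mincle and its partner MCL were both higher. Clec4e had 4.58, 2.57, 4.81 and 3.98 RPKM with vehicle and 12.01, 8.45 and 6.36 RPKM with anti-PD-1 (log2 fold change 0.98, SE 0.24, limma adjusted p = 0.0112). Clec4d had 23.4, 16.6, 23.6 and 19.8 RPKM with vehicle and 53.4, 50.4 and 25.3 RPKM with anti-PD-1 (0.95, SE 0.29, limma adjusted p = 0.0307). Replicate 3 of anti-PD-1 was nearest to vehicle in both genes but still above every vehicle sample. Clec4a1 had 28.6, 28.3, 32.2 and 36.3 RPKM with vehicle and 74.7, 48.3 and 45.1 RPKM with anti-PD-1 (0.79, SE 0.21, limma adjusted p = 0.0152).

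These 3 calls depended on anti-PD-1 replicate 1, without which only Clec12a and Clec4a2 passed, with Clec4e at 0.77 (limma adjusted p = 0.0544), Clec4d at 0.76 (0.117) and Clec4a1 at 0.57 (0.072). The Clec4d call was also lost without anti-PD-1 replicate 2 (limma adjusted p = 0.126), vehicle replicate 2 (0.0776) or vehicle replicate 4 (0.0622), and without the filter on low values (0.0591).

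The remaining receptors did not pass with anti-PD-1. Clec4a3 lay at 61.3, 69.7 and 65.5 RPKM, above the 48.0, 49.9, 53.1 and 53.1 RPKM of vehicle (log2 fold change 0.35, limma adjusted p = 0.138), and it passed when only these groups were fitted (limma adjusted p = 0.0128). Clec7a spread widely, with 128, 323 and 329.7 RPKM, around the vehicle samples. Clec4n (97.5, 131 and 72.2 RPKM) and Clec5a (52.2, 47.9 and 37.3 RPKM) also overlapped with vehicle, at log2 fold changes of -0.28 (95% interval -0.78 to 0.23) and 0.12 (-0.21 to 0.45).

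**Figure D3:**
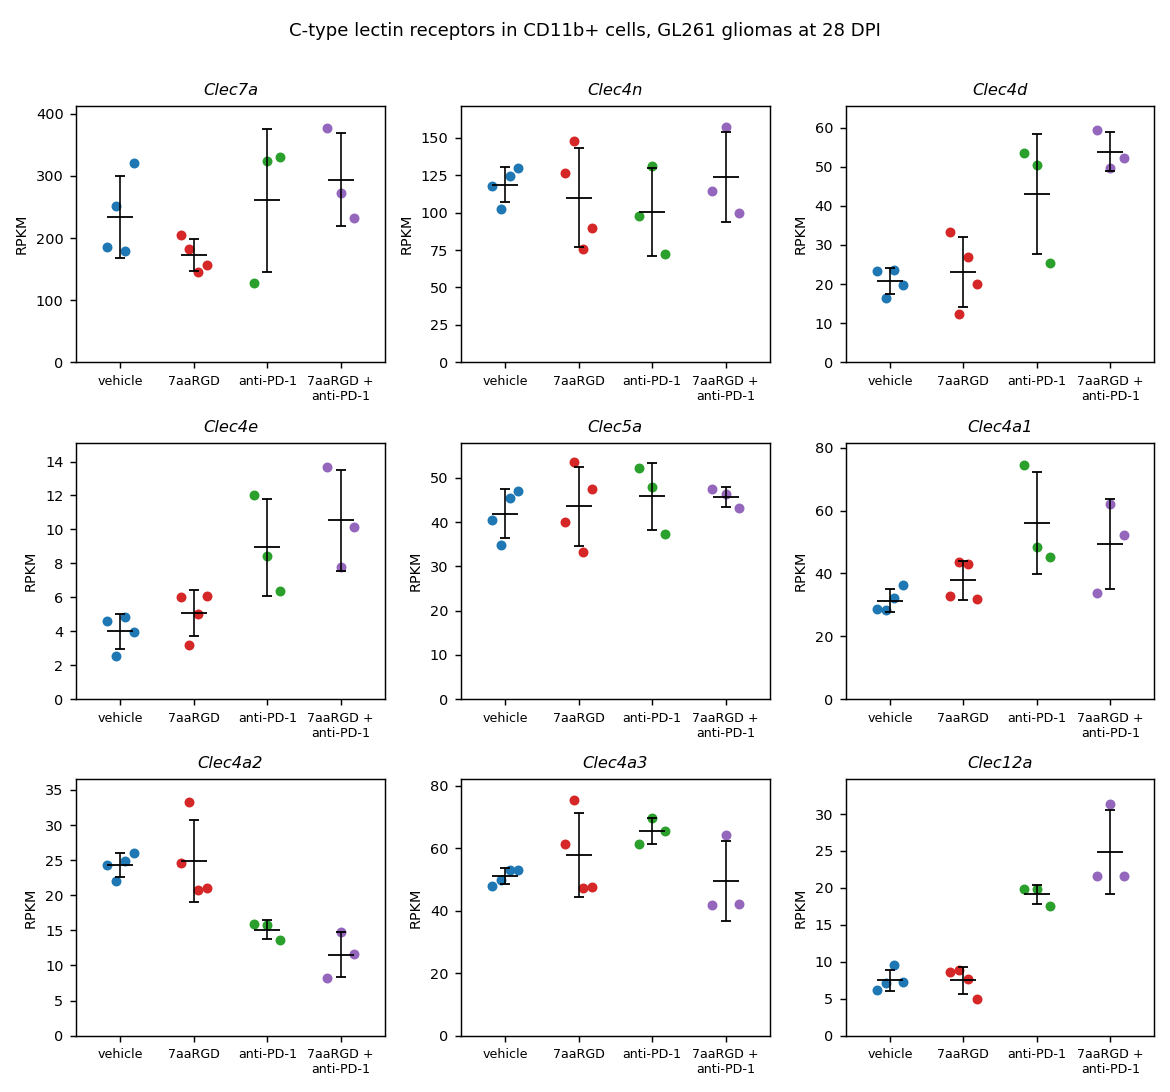
RPKM of the 9 receptors in CD11b+ cells at 28 DPI after vehicle, 7aaRGD (n = 4 each), anti-PD-1 or both agents (n = 3 each); each point is 1 mouse, and bars give the mean ± SD. The samples of both antibody groups lie above vehicle in Clec12a, Clec4d and Clec4e and below vehicle in Clec4a2, while Clec7a, Clec4n and Clec5a overlap.

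With the combination, the same 5 receptors passed against vehicle, 4 higher and 1 lower, where limma called 17.6% of genes higher and 25.8% lower. Both comparisons share the vehicle samples. Clec12a was at 21.5, 31.4 and 21.6 RPKM (log2 fold change 1.60, SE 0.18, limma adjusted p = 2.44e-05), Clec4d at 59.4, 49.7 and 52.3 RPKM (1.34, SE 0.29, limma adjusted p = 0.00245) and Clec4e at 13.7, 7.80 and 10.1 RPKM (1.21, SE 0.24, limma adjusted p = 0.00146). In these 3 genes every combination sample lay above every vehicle sample, as in 20% of genes.

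Clec4a2 was at 8.28, 14.8 and 11.6 RPKM with the combination, below all vehicle samples (28.8% of genes were lower without overlap), and fell by 1.04 on the log2 scale (SE 0.17, limma adjusted p = 0.000369). Clec4a1 was at 33.8, 62.2 and 52.2 RPKM, so that replicate 1 lay within the vehicle range (0.60, SE 0.21, limma adjusted p = 0.0299). Its call was lost without combination replicate 2 (0.42, limma adjusted p = 0.146) or 3 (0.54, 0.098), without vehicle replicate 1 (0.0667) or 2 (0.0675), without the filter on low values (0.0531) and with the replicate number as a block (0.0692). Clec7a (376, 272 and 232 RPKM), Clec4n (114, 157 and 99.5 RPKM), Clec5a (47.5, 46.5 and 43.2 RPKM) and Clec4a3 (41.8, 64.2 and 42.3 RPKM) overlapped with vehicle.

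**Figure D4:**
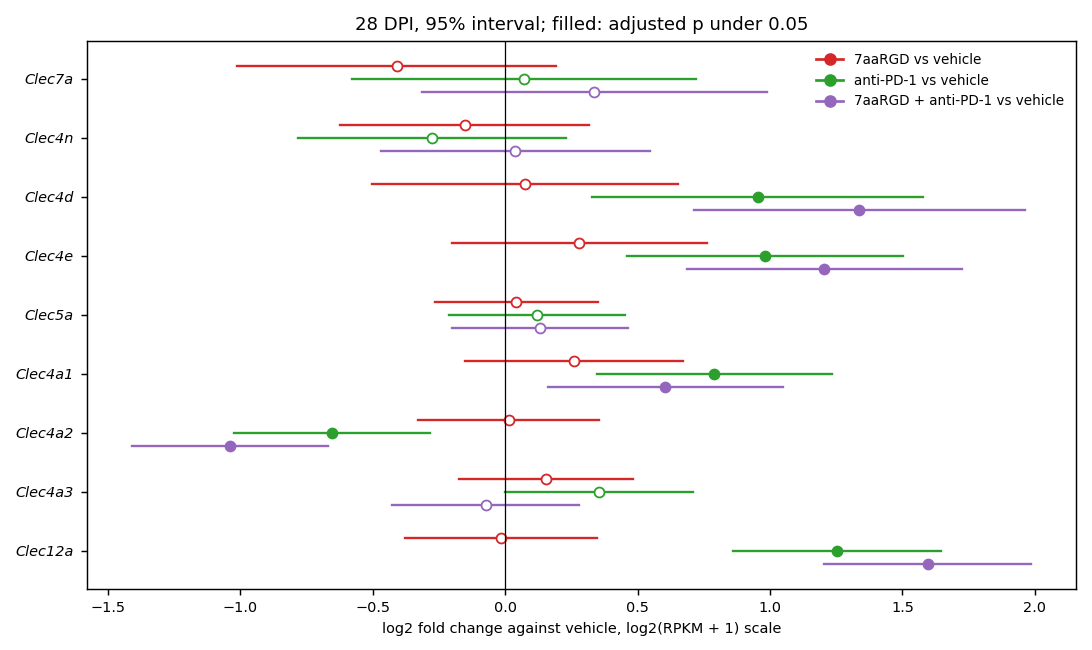
Log2 fold changes against vehicle on the log2(RPKM + 1) scale at 28 DPI for the 9 receptors after 7aaRGD, anti-PD-1 or both agents, with 95% limma intervals; filled points have an adjusted p under 0.05, and the 3 comparisons share the 4 vehicle samples. Filled points are absent for 7aaRGD and mark the same 5 receptors for both antibody groups, Clec4a2 below 0 and Clec12a, Clec4d, Clec4e and Clec4a1 above.

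Against 7aaRGD alone, 3 receptors were higher and 1 was lower with the combination, where limma called 13% of genes higher and 23.5% lower. Clec12a was higher by 1.61 on the log2 scale (SE 0.18, limma adjusted p = 4.69e-05), from 8.62, 8.87, 7.61 and 4.91 RPKM with 7aaRGD. Clec4d was higher by 1.26 (SE 0.29, limma adjusted p = 0.00472), from 33.2, 12.5, 26.9 and 20.1 RPKM, and Clec4e by 0.93 (SE 0.24, limma adjusted p = 0.00958), from 6.01, 3.18, 5.04 and 6.06 RPKM. The combination samples of these genes stood above all 7aaRGD samples, as in 14.5% of genes. Clec4a2 fell by 1.05 (SE 0.17, limma adjusted p = 0.000553), from 24.7, 33.2, 20.8 and 21.0 RPKM, again without overlap (25.8% of genes were lower without overlap). Without combination replicate 1 the Clec4e call was lost (0.74, limma adjusted p = 0.0554) and Clec4a1 was called higher (0.59, limma adjusted p = 0.0405).

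Clec7a was higher than with 7aaRGD in every combination sample, at a log2 fold change of 0.75 (95% interval 0.09 to 1.40, limma adjusted p = 0.0691). It passed with median-of-ratios factors (0.82, limma adjusted p = 0.0499) and when only the groups compared were fitted (limma adjusted p = 0.0141).

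Adding 7aaRGD to the antibody gave no receptor past the threshold against anti-PD-1 alone, where limma called 0.041% of genes, with 1 receptor and 15.1% of genes at an unadjusted p under 0.05. That receptor was Clec4a3 (-0.43, 95% interval -0.81 to -0.05, limma adjusted p = 0.276). Clec12a was higher in every combination sample than in every anti-PD-1 sample (6.25% of genes), at 0.34 (-0.08 to 0.76, limma adjusted p = 0.432), and Clec4a2 was at -0.39 (-0.78 to 0.01, limma adjusted p = 0.342). The interaction term, which asks whether the combination differed from the sum of the single agents, called 0 receptors and 0% of genes, with 1 receptor and 8.16% of genes at an unadjusted p under 0.05. It was -0.58 for Clec4a3 (95% interval -1.08 to -0.08, limma adjusted p = 0.585) and 0.36 for Clec12a (-0.20 to 0.91).

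Pathway genes also differed in the antibody groups. Of 7 tested genes known to be induced downstream of SYK and CARD9, 3 were higher with anti-PD-1 and 6 with the combination against vehicle. The cytokine gene Tnf was at 1.11 and 1.51 on the log2 scale in these comparisons, the transcription factor gene Egr2 at 0.85 and 1.72, and Ptgs2 at 2.6 with the combination. Of 16 adaptors and signalling genes, 3 were higher and 2 lower with anti-PD-1, and 4 were higher and 6 lower with the combination. Syk, the kinase shared by the activating receptors, was higher by 0.25 and 0.42, and with the combination Card9 (-0.35) and Fcer1g (-0.16) were lower; these 3 genes were chosen after their values were seen. Of 9 other C-type lectin receptors, 2 were higher with anti-PD-1, and 4 were higher and 1 lower with the combination, with the DC-SIGN gene Cd209a at 1.78 and 2.45 and Clec2d at 0.85 with anti-PD-1. Of the 4 ligand genes 0 passed with anti-PD-1 and 1 was lower with the combination. In the combination against 7aaRGD, 3 adaptor genes were higher and 3 lower, 4 cytokine genes were higher, with Il1b at 1.60 and Ptgs2 at 2.00, 4 other lectins were higher and 1 lower, with Cd209a at 2.22 and Mgl2 at 1.65, and 1 ligand gene was lower.

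Markers of monocytes and macrophages were higher in both antibody groups, in which 4 receptors were called higher and 1 lower against vehicle. With anti-PD-1 and with the combination, 5 of 7 passed against vehicle, and their summed level was 333 to 467 RPKM with vehicle, 355 to 409.9 RPKM with 7aaRGD, 571 to 623 RPKM with anti-PD-1 and 595 to 733 RPKM with the combination. Against 7aaRGD alone 4 of 7 passed with the combination. Microglia markers were higher in 1 of 7 with anti-PD-1 and in 5 of 7 with the combination (1480 to 2095 RPKM with vehicle, 1630 to 2402 RPKM and 2182 to 2347 RPKM), and NK cell markers in 0 and 3 of 4 tested (1.78 to 8.01, 1.51 to 45.8 and 16.9 to 60.3 RPKM). All 3 tested endothelium markers were higher in both antibody groups (4.92 to 10.3, 10.2 to 21.7 and 15.1 to 21.7 RPKM), and 1 of 4 tested oligodendrocyte markers was higher and 1 lower in both. Of 3 tested dendritic cell markers, Ccr7 and Cd209a, which is also on the list of lectins, were higher with anti-PD-1 and with the combination, while the most abundant, Itgax, was lower with the combination (-0.61, limma adjusted p = 0.0464). The summed level of the dendritic cell list was 191 to 242 RPKM with vehicle, 168 to 229.98 RPKM with anti-PD-1 and 123 to 184 RPKM with the combination, below every vehicle sample. Of 3 tested markers of border-associated macrophages, Mrc1 was lower with the combination against vehicle (-1.29, limma adjusted p = 0.0191) and against 7aaRGD (-1.32, limma adjusted p = 0.02004), and the list summed to 104 to 147 RPKM with vehicle, 53.2 to 116 RPKM with anti-PD-1 and 40.0 to 99.4 RPKM with the combination. Of 7 tested neutrophil markers 0 passed with anti-PD-1 and 1 was lower with the combination, as was the only neuronal marker tested. The summed T cell markers were 1.25 to 2.31 RPKM with vehicle, 1.21 to 4.41 RPKM with anti-PD-1 and 3.50 to 5.73 RPKM with the combination. In the combination against 7aaRGD, 4 of 4 tested NK cell markers, 2 of 3 of endothelium, 2 of 3 of dendritic cells and 1 of 7 of microglia were also higher. There 1 oligodendrocyte marker was higher and 1 lower, and 1 neutrophil and 1 neuronal marker were lower. None of these markers was at 0 in all samples of a group, and their part in the receptor differences was not tested.

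In U87-MG gliomas of nude mice no receptor passed the threshold in any comparison. Limma called 0% of 9692 genes for 7aaRGD against vehicle, 0.0103% for 7aaRAE against vehicle and 0% for 7aaRGD against 7aaRAE. At an unadjusted p under 0.05 stood 0, 2 and 0 receptors and 3.78%, 7.72% and 3.33% of genes.

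Clec12a had 4.33, 4.42 and 5.80 RPKM with vehicle, 2.167, 3.45 and 4.93 RPKM with 7aaRGD and 1.87, 3.33 and 2.62 RPKM with 7aaRAE. All 7aaRAE samples lay below all vehicle samples, as in 9.46% of genes, and 7aaRGD overlapped with both (7aaRAE against vehicle -0.71, 95% interval -1.23 to -0.19, limma adjusted p = 0.498). Clec5a had 28.3, 36.4 and 37.0 RPKM with vehicle, 32.4, 28.7 and 30.4 RPKM with 7aaRGD and 27.4, 27.0 and 27.0 RPKM with 7aaRAE, again without overlap between 7aaRAE and vehicle (-0.30, 95% interval -0.54 to -0.06, limma adjusted p = 0.537). Clec4n had 11.1, 12.7 and 18.8 RPKM with vehicle, 6.74, 27.6 and 15.4 RPKM with 7aaRGD and 7.07, 9.15 and 9.23 RPKM with 7aaRAE (7aaRAE against vehicle -0.65, 95% interval -1.56 to 0.25, limma adjusted p = 0.691). Its 7aaRGD samples a and b were the lowest and the highest of all 9.

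Clec7a had 36.8, 43.9 and 60.5 RPKM with vehicle, 33.4, 67.7 and 55.1 RPKM with 7aaRGD and 31.9, 74.7 and 42.6 RPKM with 7aaRAE, with overlap of all groups. Clec4d and Clec4e stayed at 2.26 to 8.53 and 1.36 to 4.5 RPKM over the 9 samples, and Clec4a1, Clec4a2 and Clec4a3 at 8.57 to 25.9, 12.6 to 25.0 and 37.7 to 63.1 RPKM. For 7aaRGD against 7aaRAE all 9 log2 fold changes were above 0, as were those of 48.4% of genes, from 0.10 (Clec7a, 95% interval -0.67 to 0.86) to 0.71 (Clec4n, -0.20 to 1.61). Clec5a alone was without overlap there (3.45% of genes were higher without overlap), at 0.16 (-0.08 to 0.40, limma adjusted p = 0.9999). None of the pathway genes and no cell type marker passed in these 3 comparisons. The summed microglia markers were 6239 to 10292 RPKM and those of monocytes and macrophages 68.0 to 152 RPKM over the 9 samples, NK cell markers were 6.42 to 17.2 RPKM with vehicle, 1.18 to 5.86 RPKM with 7aaRGD and 0.18 to 1.65 RPKM with 7aaRAE, and their part was not tested.

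**Figure D5:**
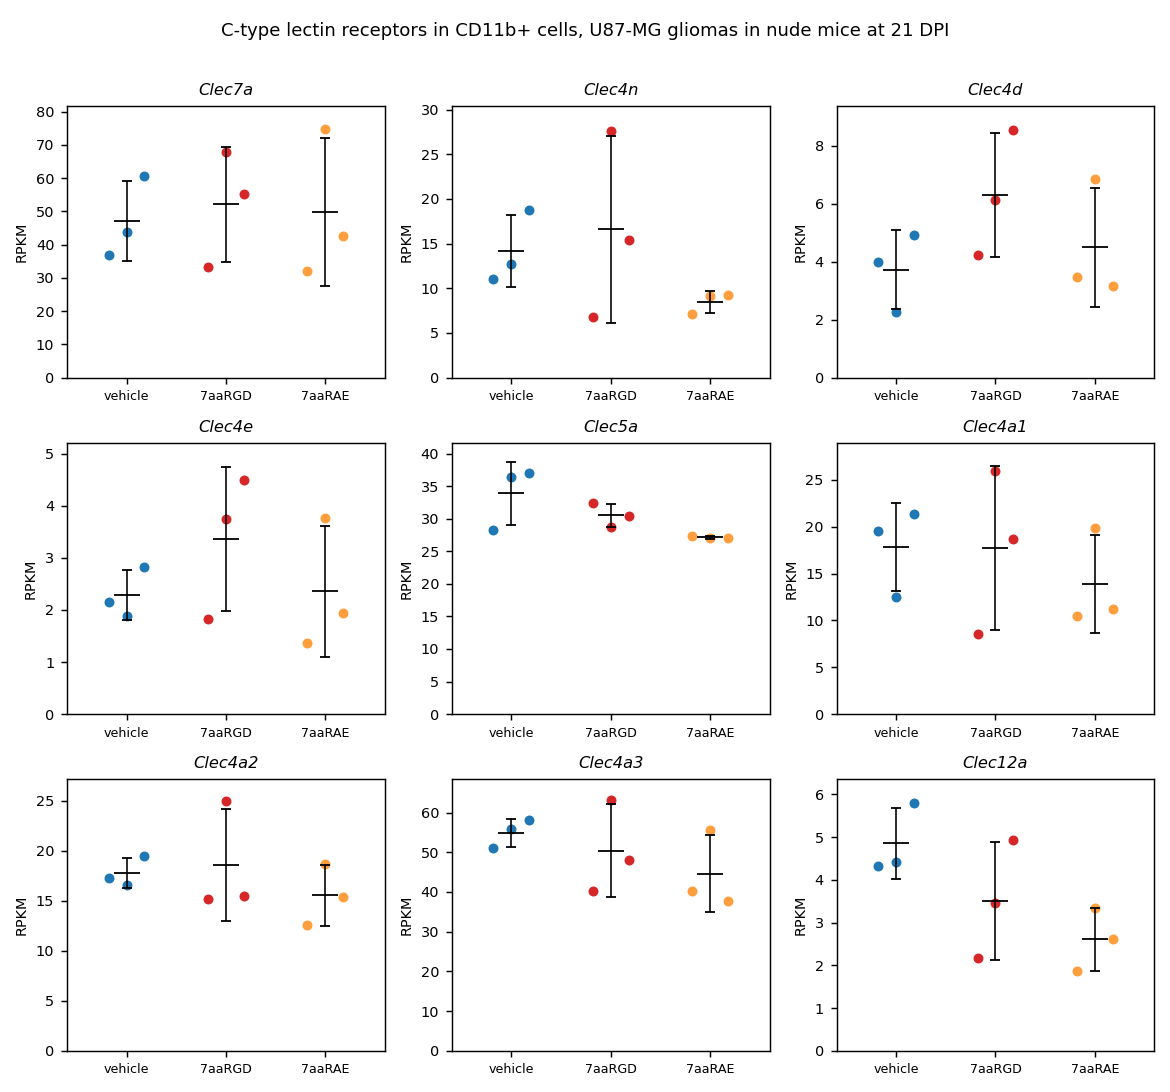
RPKM of the 9 receptors in CD11b+ cells of nude mice with U87-MG gliomas given vehicle, 7aaRGD or 7aaRAE at 21 DPI. Each point is 1 sample of 2 pooled animals (n = 3 per group), and bars give the mean ± SD. The groups overlap in most panels, and 7aaRAE lies below vehicle in Clec12a, Clec5a and Clec4n.

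Across the samples of a table, the receptors fell into unlike patterns, which are given as a description over 12, 14 and 9 samples that share treatments and normalization. Clec4d and Clec4e, neighbours on the chromosome, were the pair most alike. Their Pearson's r was 0.994 at 21 DPI and 0.926 at 28 DPI in GL261 and 0.885 in U87-MG gliomas. The 12 samples at 21 DPI include the naïve ones. Some other pairs reached a similar r there, such as Clec4d with Clec4n (0.992) and Clec4e with Clec12a (0.987). Clec4a2 ran against Clec4d and Clec4e in GL261, with r of -0.542 and -0.55 at 21 DPI and of -0.811 and -0.839 at 28 DPI. In U87-MG gliomas it ran with them (0.377 and 0.614). Of 9089 genes compared, the one most like Clec4d was Ahnak (0.954, the mean r of the 3 tables), and Ahnak was also the most like Clec4e (0.952). The genes most like the others were Anxa4 for Clec7a (0.915), H2-Eb1 for Clec12a (0.914), Spn for Clec4a1 (0.904), Ptpn7 for Clec4n (0.825), Macrod1 for Clec4a2 (0.795), Vps26a for Clec4a3 (0.776) and Nsd2 for Clec5a (0.755).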

How the data were processed

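RNA-seq values of CD11b+ cells were analysed from 35 of the 40 samples listed; the other samples (replicate 4 of both antibody groups and naïve nude mice) are not analysed here. The authors' pipeline ran Trimmomatic, then STAR against mm10, then gene-level counting by HTSeq 0.11.1. The values deposited by the authors were RPKM plus a constant of 2, read from the values themselves, and 2 was subtracted. Whole reads could not be recovered, so depth is unknown and no count test was used.

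Of the rows, 98.9% found their name in GENCODE or RefSeq, and the tests used the 22355 protein-coding ones. These include Clec7a, which GENCODE lists as a polymorphic pseudogene and RefSeq as protein-coding. Values were tested as log2(RPKM + 1), with values below 0 set to 0, by limma 3.58.1 in R 4.3.3 (lmFit, then eBayes allowing for a trend). Genes averaging 1 RPKM or more entered, with Benjamini-Hochberg adjustment over all genes fitted and a threshold of 0.05. Tumor-bearing groups of a table were fitted together, and naïve mice with vehicle alone. A fold change on this scale understates changes of low genes. Residuals of samples with the same replicate number correlated over 0.1 in 1 of 9 pairs at 21 DPI and 3 of 19 at 28 DPI. The lowest r was -0.77, between replicates 1 of vehicle and 7aaRGD at 21 DPI. Because values were altered after normalization, these correlations cannot decide whether replicate numbers pair samples, and the main fits used no block.

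All 9 receptors were tested in every comparison, and where few or none passed, some are given only by the range of their values. Pathway lists are given as counts, and by name the genes past the threshold, at most 4 in a comparison, with the largest change; genes outside this rule are named as such. The 3 genes most alike were ranked by mean Pearson's r, and the first is given. The receptors, lists and tests were chosen with earlier results of these data known. Groups were said to overlap unless every sample of one lay above every sample of the other. The test was also run on simulated data with independent noise for each sample. This check cannot show how correlated residuals affect the p-values. Alternatives were another pseudocount, filter or scaling, all named rows, other groups in the fit, the replicate number as a block and each sample left out.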

Additional observations from a re-analysis of the deposited data

How the results depend on the processing

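The number of receptors past the threshold moved by more than 1.5 times in 1 setting only, anti-PD-1 against vehicle without anti-PD-1 replicate 1. When each sample was left out in turn, 7 to 8 receptors passed for vehicle against naïve mice, 2 to 5 for anti-PD-1, 4 to 5 for the combination against vehicle and 4 in every case for the combination against 7aaRGD, while the other 9 comparisons stayed at 0. No called log2 fold change changed its sign under any alternative. Whether the replicate number pairs samples is not known. With it as a block, 7 receptors passed for vehicle against naïve mice and 5 for anti-PD-1 against vehicle. For the combination 4 passed against vehicle and 4 against 7aaRGD, and 0 passed in the other GL261 comparisons. The block ended only the Clec4a1 call of the combination (0.60, limma adjusted p = 0.0692). No paired analysis was possible in U87-MG gliomas because the columns carry no replicate numbers. Treating the samples c of that table as a block, or leaving them out, both chosen after seeing the data, gave 0 receptors. With a mean of at least 5 RPKM, Clec4d, Clec4e and Clec12a dropped out of the U87-MG fit. Counts over all genes moved more: for 7aaRGD against vehicle from 14 genes to 0 with the block and 121 without vehicle replicate 3 at 21 DPI, and from 78 to 0 with the block at 28 DPI; for anti-PD-1 against vehicle from 2256 to 1368 without anti-PD-1 replicate 2; and for 7aaRAE against vehicle in U87-MG gliomas from 1 to 32 when only these groups were fitted. The causes of these changes were not tested. Depth is unknown, and groups of 3 or 4 samples limit what can be called.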
